A study of Mus musculus with 6 samples.

Results

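The insulin-like growth factor (IGF) genes described here are 2 ligands, 2 receptors and 6 binding proteins, namely *Igf1*, *Igf2*, *Igf1r*, *Igf2r*, *Igfbp2*, *Igfbp3*, *Igfbp4*, *Igfbp5*, *Igfbp6* and *Igfbp7*. They were chosen by gene symbol, with earlier results of these data known, and all 10 were among the 23284 genes listed for each sample. Osteoblasts (OBs) expressing ECFP under the *Col2.3* fragment of the type I collagen promoter had been isolated by flow cytometry from the bone that a subcutaneous collagen sponge carrying BMP-2 forms in male *Col2.3*-ECFP mice aged 12 to 16 weeks. Samples were taken at day 10 (n = 3) or day 14 (n = 3). Every sample thus shared the transgene and the BMP-2 implant, no sample came from untreated bone, and CD45+ and dead cells had been gated out in all of them. Tissue of day 10 received 1 collagenase digestion and tissue of day 14 received 2, so that the day and the digestion cannot be told apart. The titles place all later samples on day 14, whereas their descriptions give day 14, 15 and 16 for replicates 1, 2 and 3. The titles call the samples biological replicates, without saying whether a sample was 1 mouse or a pool.

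IGF1 and IGF2 are secreted growth factors that act on the tyrosine kinase receptor encoded by *Igf1r* and drive growth, survival and matrix production of bone-forming cells. The receptor encoded by *Igf2r* has no kinase and carries IGF2 to lysosomes for degradation. The IGFBPs bind the ligands outside the cell and, depending on the context and on the proteases that cut them, restrain or prolong ligand action, and bone matrix is a known store of IGFs and IGFBPs.

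Of the 6 binding protein genes, 5 were separated between the days, beside 7.59% of all genes tested that did not overlap and were higher on day 14, and the ligand and receptor genes all overlapped. *Igfbp2*, *Igfbp4*, *Igfbp5*, *Igfbp6* and *Igfbp7* were higher in each day 14 sample than in every day 10 sample. Between the mean log2 levels of the days, they differed by 1.85-fold to 5.18-fold. These 5 are the members with an unadjusted p under 0.05 from limma, which 5.6% of all genes tested had with day 14 higher, and none of the 10 members had an adjusted p under 0.05 over the 19526 genes tested. Levels are in FPKM, which corrects read numbers for transcript length and for sequencing depth, and differences are on the log2(FPKM + 0.1) scale, which understates the change of low genes.

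To show the sequence around the start of the 5 genes that separated the days, the 200 bases upstream of the first RefSeq transcription start listed for each are given 5′ to 3′ on the gene's strand (GRCm38.p6, the assembly called mm10). Capitals mark matches, on either strand, to any of the motifs searched.
*Igfbp2* (chr1:72824280-72824479, plus strand): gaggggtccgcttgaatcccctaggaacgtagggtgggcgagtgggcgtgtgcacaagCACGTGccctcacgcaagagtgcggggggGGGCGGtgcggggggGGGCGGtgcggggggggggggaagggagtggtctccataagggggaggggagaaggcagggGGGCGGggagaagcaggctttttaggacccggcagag
*Igfbp4* (chr11:99041044-99041243, plus strand): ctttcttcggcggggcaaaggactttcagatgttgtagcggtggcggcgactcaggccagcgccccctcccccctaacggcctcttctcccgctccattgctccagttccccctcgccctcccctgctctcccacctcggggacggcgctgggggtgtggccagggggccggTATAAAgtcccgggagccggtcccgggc
*Igfbp5* (chr1:72874866-72875065, minus strand): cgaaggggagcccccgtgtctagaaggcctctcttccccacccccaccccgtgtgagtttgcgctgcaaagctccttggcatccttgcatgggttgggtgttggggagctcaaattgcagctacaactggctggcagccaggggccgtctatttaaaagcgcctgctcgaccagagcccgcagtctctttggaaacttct
*Igfbp6* (chr15:102143986-102144185, plus strand): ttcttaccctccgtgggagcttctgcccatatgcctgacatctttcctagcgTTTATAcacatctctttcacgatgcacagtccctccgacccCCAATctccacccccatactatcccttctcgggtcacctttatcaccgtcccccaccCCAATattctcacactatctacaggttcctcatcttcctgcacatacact
*Igfbp7* (chr5:77408046-77408245, minus strand): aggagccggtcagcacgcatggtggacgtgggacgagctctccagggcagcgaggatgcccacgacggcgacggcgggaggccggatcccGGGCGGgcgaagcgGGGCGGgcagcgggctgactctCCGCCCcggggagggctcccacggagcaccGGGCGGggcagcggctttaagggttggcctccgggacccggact

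The motifs searched were the GC box GGGCGG, the TATA box TATAAA, the CCAAT box CCAAT, the AP-1 site TGANTCA, the E-box CACGTG, the RUNX site TGTGGT and the FOXO site GTAAACA. None of the 7 occurred in all 5 windows. The *Igfbp2* window held 3 GC boxes and 1 E-box, and the *Igfbp7* window held 4 GC boxes. The *Igfbp4* window held 1 TATA box, the *Igfbp6* window 1 TATA box and 2 CCAAT boxes, and the *Igfbp5* window none of the motifs. Of the 32851 promoter windows of the same length in the RefSeq table, 31.0% held a GC box, 29.3% a CCAAT box, 11.2% a RUNX site, 9.96% a TATA box, 5.48% an AP-1 site, 5.26% an E-box and 2.51% a FOXO site. The windows of *Igfbp2*, *Igfbp4*, *Igfbp5* and *Igfbp7* had a GC content of 70.5%, 69.5%, 59% and 75.5%, above the median of 53% over all windows, and that of *Igfbp6* had 51%. These matches describe the letters in the windows and do not show binding of any factor.

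In the GENCODE vM21 annotation of mm10, all 10 members are protein-coding. *Igfbp2* (chromosome 1, 72824503 to 72852474, plus strand) and *Igfbp5* (chromosome 1, 72857932 to 72874884, minus strand) lie end to end, 5457 bases apart with no annotated gene between them. *Igfbp3* (chromosome 11, 7206086 to 7213923, minus strand) lies in the same arrangement 3539 bases from *Igfbp1*, which was listed at 0 FPKM in 3 samples and at most at 0.293 FPKM in the others, about 2.95 estimated reads. *Igfbp4* (chromosome 11, 99041244 to 99054392), *Igfbp6* (chromosome 15, 102144362 to 102149511) and *Igfbp7* (chromosome 5, 77349240 to 77408041) lie elsewhere. The windows shown above for *Igfbp6* and *Igfbp2* end at 102144185 and 72824479, upstream of these annotated starts and not next to them. *Igf1* lies on chromosome 10 from 87858265 to 87937042 and *Igf2* on chromosome 7 from 142650766 to 142666816. *Igf1r* lies on chromosome 7 from 67952827 to 68233668 and *Igf2r* on chromosome 17 from 12682406 to 12769664.

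*Igfbp7* and *Igfbp4* were the most abundant members on both days. On day 10, the order by mean FPKM was *Igfbp7*, *Igfbp4*, *Igfbp3*, *Igfbp6*, *Igf1*, *Igf2r*, *Igfbp2*, *Igfbp5*, *Igf2* and *Igf1r*. The sample ranges overlapped between the neighbours *Igfbp3* and *Igfbp6*, *Igf2r* and *Igfbp2*, *Igfbp2* and *Igfbp5*, and *Igf2* and *Igf1r*. On day 14, *Igfbp6* stood above *Igfbp3* in 2 of 3 samples, and *Igfbp2* had moved ahead of *Igf1* and *Igf2r*, with a range that overlapped that of *Igf1*. The ranges of *Igfbp5* and *Igf2r* and those of *Igf2* and *Igf1r* overlapped as well. Among all genes listed, *Igfbp7* ranked 67 by mean FPKM on day 10 and 39 on day 14, and *Igfbp4* ranked 153 and 71. *Igfbp2* ranked 4063 on day 10 and 1021 on day 14, while *Igf1r* ranked 9819 and 9524.

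**Figure D1:**
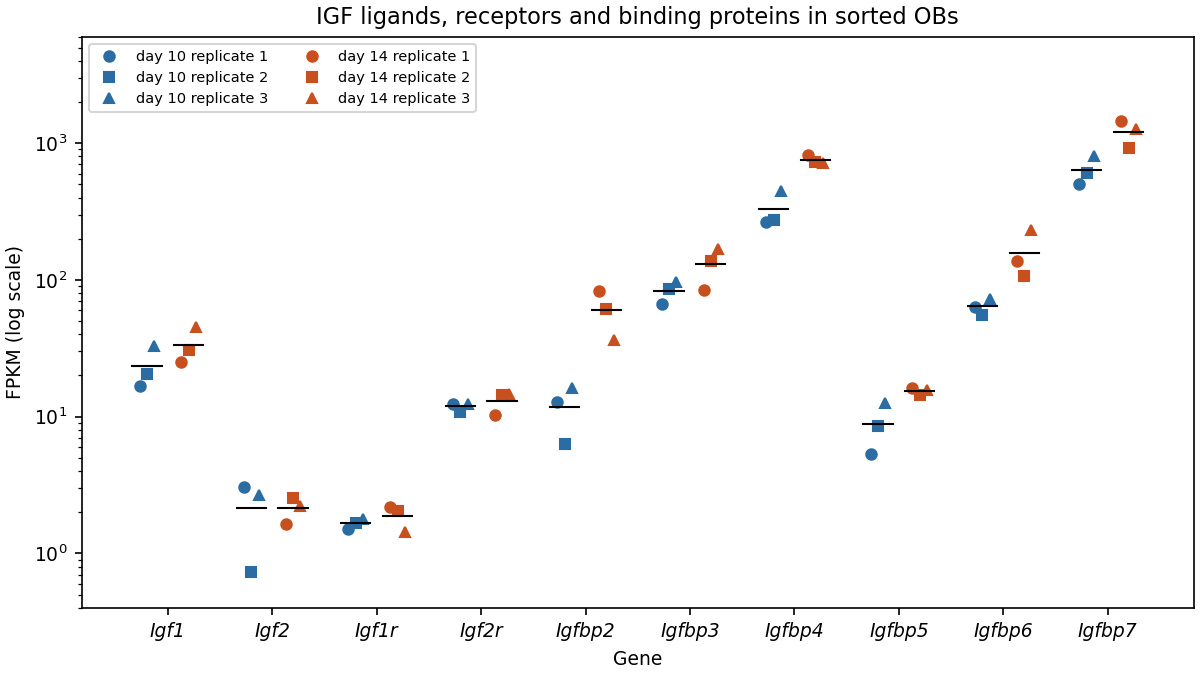
FPKM of the 10 genes in each sample on a log axis, with day 10 in blue, day 14 in orange, a symbol per replicate and a black line at each day's mean. The day 14 points of *Igfbp2*, *Igfbp4*, *Igfbp5*, *Igfbp6* and *Igfbp7* lie above all day 10 points, and those of the other 5 genes overlap with day 10.

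The first question was whether OBs of both days differed in the ligands. *Igf1*, the main growth factor that mediates growth hormone action, had 16.8, 20.6 and 32.8 FPKM in day 10 replicates 1, 2 and 3, and 25.3, 30.7 and 45.2 FPKM in day 14 replicates 1, 2 and 3. Replicate 3 was the highest of its day on both days, and the days overlapped. The mean was 23.4 ± 8.34 FPKM (SD, n = 3) on day 10 and 33.7 ± 10.3 FPKM (SD, n = 3) on day 14, which is 0.54 on the log2 scale (standard error 0.29, 95% interval −0.13 to 1.2) and had an adjusted p of 0.595 from limma. *Igf2*, the fetal ligand that is expressed from the paternal allele, had 3.05, 0.73 and 2.69 FPKM on day 10 and 1.63, 2.56 and 2.23 FPKM on day 14. The lowest value was that of day 10 replicate 2, through which the days overlapped, since the other day 10 samples were above every day 14 sample. Its means were 2.15 ± 1.25 and 2.14 ± 0.472 FPKM (SD, n = 3 each), with a log2 fold change of 0.19 and a 95% interval from −1.0 to 1.38 (adjusted p = 0.952 from limma). *Igf2* rested on few reads, between 2.96 and 15.2 estimated reads per sample at the median annotated transcript length and between 18.2 and 93.7 at the longest. It shares 3596 exon bases with the same-strand gene *Gm49394* of the annotation and 98 with the antisense gene *Igf2os*, and reads of these cannot be told apart from those of *Igf2* without strand.

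Within each sample *Igf1* exceeded *Igf2* by 5.38-fold to 25-fold on the scale of FPKM + 0.1, and made up 84.7% to 96.6% of the ligand sum. The log2 ratio of *Igf2* to *Igf1* was −3.54 ± 1.11 on day 10 and −3.89 ± 0.37 on day 14 (SD, n = 3 each; two-sided exact permutation test, p = 0.8). *H19*, the noncoding RNA gene expressed from the maternal allele 72622 bases from *Igf2*, was well above it with 17.8 to 40.7 FPKM on day 10 and 15.4 to 40.0 FPKM on day 14, and the days overlapped.

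The receptor genes were within the spread between samples. *Igf1r*, the signalling receptor, had 1.51, 1.67 and 1.8 FPKM on day 10 and 2.17, 2.03 and 1.44 FPKM on day 14. The lowest and the highest value both belonged to day 14. *Igf2r*, the clearance receptor, had 12.4, 10.9 and 12.3 FPKM on day 10 and 10.2, 14.4 and 14.6 FPKM on day 14, again with day 14 spanning day 10. The log2 fold changes were 0.16 for *Igf1r* (95% interval −0.56 to 0.88, adjusted p = 0.924 from limma) and 0.12 for *Igf2r* (95% interval −0.32 to 0.56, adjusted p = 0.893 from limma). *Igf2r* exceeded *Igf1r* in every sample, by 4.51-fold to 9.56-fold, and the insulin receptor gene *Insr* exceeded *Igf1r* by 1.51-fold to 2.46-fold. The log2 ratios did not move between the days beyond their spread, with differences of 0.03 for *Igf1r* to *Igf2r* and 0.04 for *Igf1r* to *Insr* (two-sided exact permutation tests, p = 1 for both). *Airn*, the antisense RNA gene within *Igf2r*, was listed at 2.24 to 7.41 FPKM and shares no exon bases with it.

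*Igfbp2*, a binding protein with a preference for IGF2, differed most among the members. It had 12.8, 6.33 and 16.1 FPKM in day 10 replicates 1, 2 and 3, and 82.4, 61.4 and 36.4 FPKM in day 14 replicates 1, 2 and 3. Each day 14 sample was more than 2-fold above the highest day 10 sample. The means of 11.7 ± 4.95 and 60.1 ± 23.1 FPKM (SD, n = 3 each) gave a log2 fold change of 2.37 (standard error 0.39, 95% interval 1.48 to 3.26), with an unadjusted p of 0.000237 and an adjusted p of 0.22 from limma. For each of the 5 separated genes the two-sided exact permutation test gave p = 0.1, below which a design of this size cannot go. The values rested on 26.8 to 94.9 estimated reads per sample on day 10 and 195 to 285 on day 14, at the median annotated transcript length.

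*Igfbp4*, which inhibits IGF action in bone until the protease PAPP-A cuts it, had 266, 274 and 450.0 FPKM on day 10 and 826, 730.2 and 717 FPKM on day 14. Its day 14 samples lay close together, and day 10 replicate 3 was the nearest to them. The means were 330.0 ± 104 and 758 ± 59.6 FPKM (SD, n = 3 each), or 1.24 on the log2 scale (standard error 0.24, unadjusted p = 0.000824, adjusted p = 0.292 from limma). *Igfbp6*, the member with the strongest preference for IGF2 over IGF1, had 63.8, 55.6 and 72.6 FPKM on day 10 and 137, 106 and 230.4 FPKM on day 14. All its day 14 samples were above 100 FPKM and no day 10 sample was, with replicate 3 highest on both days. Its means were 64 ± 8.51 and 158 ± 64.6 FPKM (SD, n = 3 each), with a log2 fold change of 1.23 (standard error 0.27, unadjusted p = 0.00171, adjusted p = 0.297 from limma).

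*Igfbp7*, a secreted protein with low affinity for IGFs that is also made by vessels and stroma, had 503, 601 and 804 FPKM on day 10 and 1462, 919 and 1269 FPKM on day 14. The gap between the days was narrow, from day 10 replicate 3 to day 14 replicate 2. Its means of 636 ± 154 and 1216 ± 275 FPKM (SD, n = 3 each) gave a log2 fold change of 0.94 (standard error 0.28, unadjusted p = 0.00875, adjusted p = 0.34 from limma). Its annotated exons share 85 bases with those of *Polr2b* on the opposite strand, which was listed at 10.7 to 14.0 FPKM. *Igfbp5*, a binding protein with affinity for bone mineral and matrix, had the lowest mean FPKM of the binding protein members on both days. It had 5.31, 8.49 and 12.5 FPKM on day 10 and 16.3, 14.3 and 15.7 FPKM on day 14, so that day 14 was tight and day 10 replicate 3 came near to it. Its log2 fold change was 0.89 (standard error 0.29, unadjusted p = 0.0145, adjusted p = 0.375 from limma).

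*Igfbp3*, the main IGF carrier in serum, had 66.9, 85.9 and 97.1 FPKM on day 10 and 84.7, 137 and 169 FPKM on day 14. Among the binding protein members, it was the only one whose days overlapped, through day 14 replicate 1. The log2 fold change was 0.60 (standard error 0.27, unadjusted p = 0.0512, adjusted p = 0.501 from limma).

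**Figure D2:**
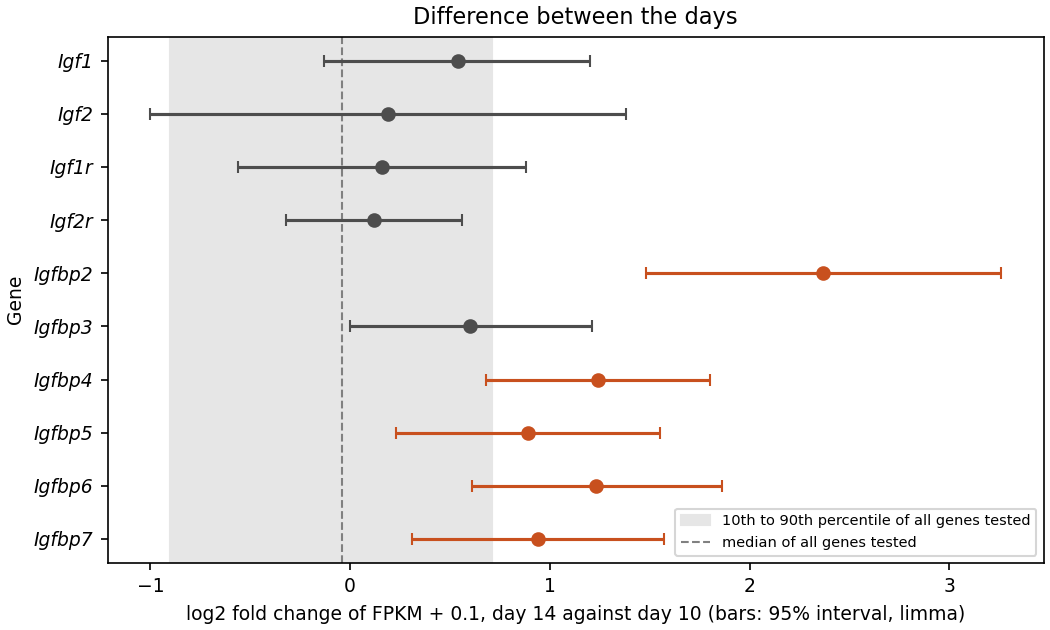
Log2 fold change of FPKM + 0.1 between the days (positive where day 14 was higher) for each gene, with its 95% interval from limma, in orange where the unadjusted p was under 0.05. The grey band runs from −0.90 to 0.71, the 10th to 90th percentile of all genes tested, and 5 of the 10 genes lie to the right of it.

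By counts, 5 of the 10 members were higher on day 14 with an unadjusted p under 0.05 and none was lower, beside 5.6% of all genes tested that were higher and 4.4% that were lower with such a p. Groups that did not overlap, with day 14 higher, were found for the same 5 members and for 7.59% of all genes tested. A fold change over 2 upwards was found for 3 members, *Igfbp2*, *Igfbp4* and *Igfbp6*, and for 5.25% of all genes. An adjusted p under 0.05 was found for none of the members and for 0.0154% of all genes, that is 3 genes. The median log2 fold change was 1.09 over the 6 binding protein genes, 0.17 over the 4 ligand and receptor genes and −0.04 over all genes tested. Without day 10 replicate 3, 5 members were over 2-fold, and without day 14 replicate 3, 2 were.

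The summed level of the 6 binding protein genes was 917, 1032 and 1452 FPKM in day 10 replicates 1, 2 and 3, and 2609, 1968 and 2438 FPKM in day 14 replicates 1, 2 and 3. The same 2 genes led it in every sample. *Igfbp7* made up 46.7% to 58.3% of the sum and *Igfbp4* 26.6% to 37.1%, while the share of *Igfbp2* was 1.04% ± 0.393 on day 10 and 2.59% ± 0.951 on day 14 (SD, n = 3 each). The share of *Igfbp3* was 7.44% ± 0.832 on day 10 and 5.71% ± 2.13 on day 14 (SD, n = 3 each), with 3.25% in day 14 replicate 1. Divided by the ligand sum of *Igf1* and *Igf2*, the binding protein sum was 46.2, 48.3 and 40.9 on day 10 and 96.9, 59.2 and 51.4 on day 14. All day 14 samples were above all day 10 samples in this quotient, which says nothing of the amounts of protein.

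**Figure D3:**
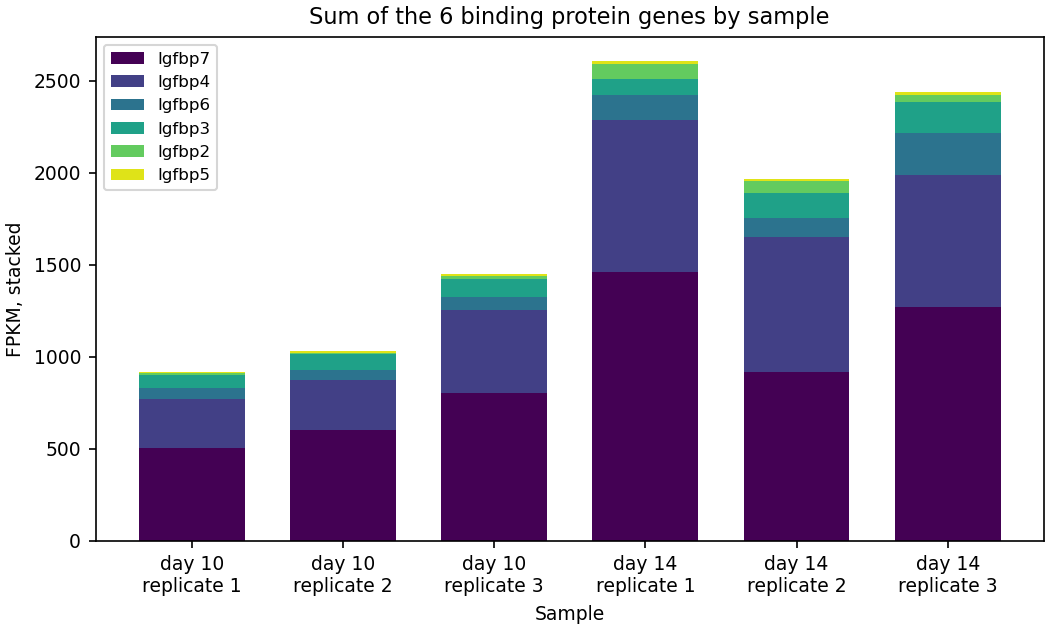
FPKM of the 6 binding protein genes stacked for each sample, so that bar height is their sum. The bars of day 14 reach 1968 to 2609 FPKM and those of day 10 reach 917 to 1452 FPKM, with *Igfbp7* and *Igfbp4* filling most of each bar.

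The ratio of *Igfbp5* to *Igfbp4* differed by −0.35 on the log2 scale between the days (two-sided exact permutation test, p = 0.2), and that of *Igfbp3* to *Igfbp5* by −0.29 (two-sided exact permutation test, p = 0.6). After Benjamini-Hochberg adjustment over the 5 ratios compared, the exact permutation p was 1 for each of them.

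Other genes of the IGF axis were taken from 4 lists of 59 genes in all, of which 56 were tested. Of these, 7 were higher and 1 was lower on day 14 with an unadjusted p under 0.05 from limma, beside 5.6% and 4.4% of all genes tested, and none had an adjusted p under 0.05. The total of 8 became 3 without day 10 replicate 1, and 5 without day 10 replicate 2 or without day 14 replicate 3. Their days did not overlap in 10 genes with day 14 higher and in 3 with day 14 lower, beside 7.59% and 6.67% of all genes tested. The median log2 fold change of the 56 genes was 0.13.

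Among 10 other secreted genes, 9 of them tested, *Htra1* was the highest and the only one with an unadjusted p under 0.05. *Htra1*, a secreted serine protease that cuts IGFBPs, had 121, 116 and 111 FPKM on day 10 and 125, 229.9 and 187 FPKM on day 14, just separated through day 14 replicate 1 (log2 fold change 0.60, unadjusted p = 0.0273, adjusted p = 0.433 from limma). *Pappa*, the gene of the protease that frees IGFs from IGFBP4, was low with 1.91 ± 0.457 FPKM on day 10 and 2.8 ± 0.587 FPKM on day 14 (SD, n = 3 each; adjusted p = 0.625 from limma). The stanniocalcin genes *Stc1* and *Stc2*, whose products inhibit PAPP-A, were between 0.4 and 3.55 FPKM, with overlapping days. *Igfals*, the gene of the acid-labile subunit of the serum IGF complex, was at most at 0.643 FPKM.

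Upstream, *Ghr*, the growth hormone receptor gene, was separated between the days as well. It had 37.4, 29.8 and 42.9 FPKM on day 10 and 104, 70.5 and 78.9 FPKM on day 14, without overlap. Its means were 36.7 ± 6.6 and 84.6 ± 17.7 FPKM (SD, n = 3 each), with a log2 fold change of 1.20 (standard error 0.20, unadjusted p = 0.000295, adjusted p = 0.236 from limma). In the same list of 11 genes, *Stat5b*, a transcription factor downstream of this receptor, had means of 3.35 ± 0.508 and 5.18 ± 0.772 FPKM without overlap (SD, n = 3 each; unadjusted p = 0.0285, adjusted p = 0.438 from limma). *Igf2bp2*, which encodes an RNA-binding protein that binds *Igf2* mRNA, had means of 3.2 ± 1.19 and 5.97 ± 1.82 FPKM with overlap (SD, n = 3 each; unadjusted p = 0.0299, adjusted p = 0.44 from limma). *Socs3*, a feedback inhibitor of cytokine signalling, was the highest gene of this list with 121 to 242 FPKM.

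Downstream of the receptors, *Irs1*, an adaptor that links IGF1R to PI3K, was the only one of 15 tested receptor and adaptor genes with an unadjusted p under 0.05, and it was lower on day 14. It had 7.9, 7.63 and 7.41 FPKM on day 10 and 4.69, 7.09 and 2.89 FPKM on day 14, with day 14 replicate 2 close to day 10 (log2 fold change −0.72, unadjusted p = 0.046, adjusted p = 0.492 from limma). The related adaptor gene *Irs2* was higher in level, with 30.4 ± 3.47 FPKM on day 10 and 42.4 ± 13 FPKM on day 14 (SD, n = 3 each), and its days overlapped (adjusted p = 0.598 from limma). *Grb10*, an imprinted adaptor gene that restrains insulin and IGF1 receptors, was the highest of this list with 54.9 to 75.7 FPKM, and *Insr* had 2.56 to 3.86 FPKM. Both overlapped between the days.

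Of 21 tested genes of the PI3K, AKT and TOR list, 3 were higher on day 14 with an unadjusted p under 0.05, beside 5.6% of all genes tested. Among them, *Rheb*, a GTPase gene that activates mTORC1, had 61.8 ± 6.7 and 87.8 ± 9.93 FPKM (SD, n = 3 each; adjusted p = 0.361 from limma). The most abundant genes of this list, *Eif4ebp1* and *Akt1*, overlapped between the days, with 107 ± 11.1 and 93.1 ± 15.1 FPKM and with 92.9 ± 5.81 and 82 ± 13.2 FPKM (SD, n = 3 each).

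**Figure D4:**
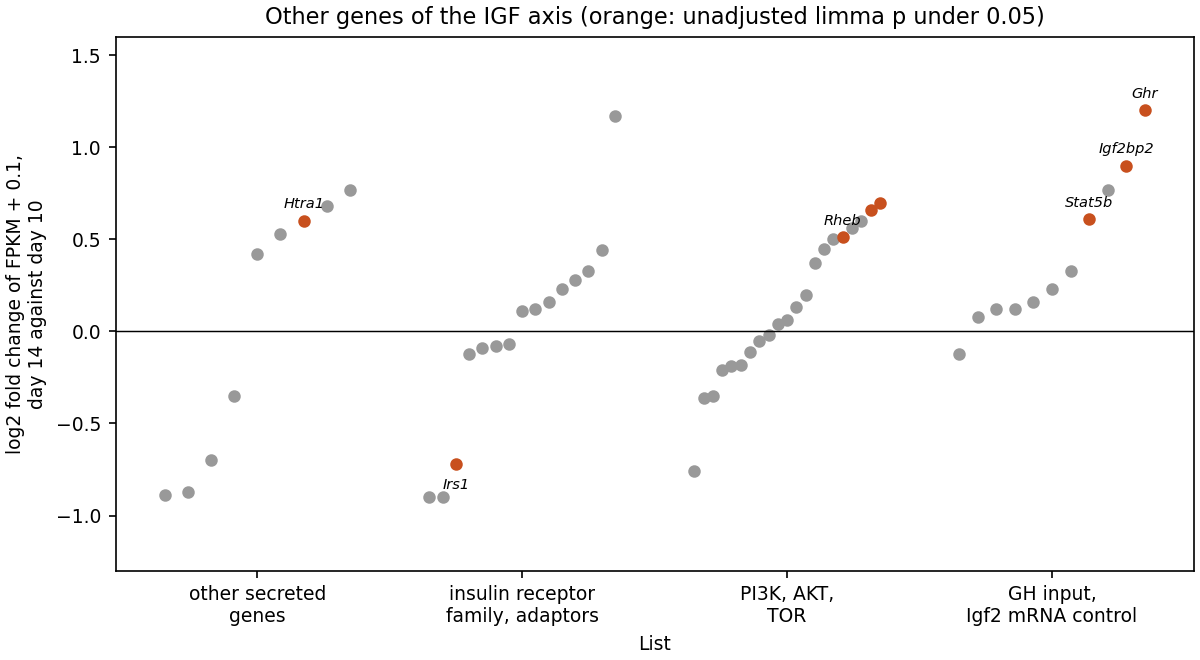
Log2 fold change of FPKM + 0.1 between the days (positive where day 14 was higher) for 56 other genes of the IGF axis in 4 lists, each point a gene, sorted within its list. Points in orange had an unadjusted p under 0.05 from limma, 7 above the line at 0 and *Irs1* below it. The genes with values in the text carry their symbols where they are orange.

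The sorted cells were checked against markers of OBs and of other cells. All 7 OB markers, among them *Col1a1*, *Ibsp* and *Alpl*, were above 0 in every sample. So were 16646 to 19698 of the 23284 genes listed, depending on the sample. The mean log2(FPKM + 0.1) of the 7 markers was 8.84, 8.90 and 7.93 on day 10 and 6.81, 8.38 and 5.92 on day 14. All 7 had a lower mean log2 level on day 14, with a median log2 fold change of −1.69. *Sp7* alone was separated with day 14 lower, beside 6.67% of all genes tested. A list of 8 fibroblast and progenitor markers, among them *Ly6a*, *Cd34*, *Pi16* and *Cxcl12*, had means of 4.70, 4.76 and 5.40 on day 10 and 5.70, 4.97 and 6.05 on day 14 on the same scale (two-sided exact permutation test, p = 0.2). All 8 were above 0 in every sample, and the mean log2 level was higher on day 14 for 6 and lower for 2. The lower ones were *Lepr*, with 11.8 ± 6.11 and 4.21 ± 2.65 FPKM (SD, n = 3 each), and *Pdgfra*, with a log2 fold change of −0.02. Of the list, *Cxcl12* alone was separated with day 14 higher and *Lepr* alone with day 14 lower. In these bulk samples, more cells of another type and more RNA of a gene per cell cannot be told apart.

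The binding protein genes were set beside these markers sample by sample. Day 10 replicate 3 had the highest value of its day for all 6 binding protein genes and for 8 of the 10 members, and it also had the highest progenitor and the lowest OB marker level of that day. The share of all genes that were highest in that sample was not counted, so a trait of the sample and one of the members cannot be told apart. *Igfbp6* was highest on each day in the sample with the highest progenitor level. *Igfbp2* followed another order on day 14, since it was lowest in replicate 3, where the progenitor level was highest. Day 14 replicate 2 had a progenitor level within the range of day 10. Its *Igfbp2*, *Igfbp4*, *Igfbp5*, *Igfbp6* and *Igfbp7* were above those of every day 10 sample. Of the progenitor list, its *Cxcl12* (218 FPKM) was also above every day 10 sample. Its *Lepr* (6.57 FPKM) and *Pdgfra* (20.4 FPKM) were below, and the rest of the list lay within the range of day 10. Taken relative to the progenitor list in the same sample, an alternative chosen after the data were seen, the log2 fold change was 1.75 for *Igfbp2* (adjusted p = 0.136 from limma), 0.62 for *Igfbp4*, 0.61 for *Igfbp6*, 0.32 for *Igfbp7* and 0.27 for *Igfbp5*. On that scale *Igfbp2* was the only member with an unadjusted p under 0.05, at 0.000998 from limma. Of the 19526 genes tested, 2247 had such a p, in either direction. The median of all genes lay at −0.66 there. The part of a shift of cell types in the differences of the 5 genes, *Igfbp2* included, was not tested.

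Of the other marker lists, the endothelial one was separated between the days, narrowly and at low levels. Chondrocyte markers, 9 of 10 of them listed, had a mean level of 5.11 to 5.78 on day 10, 6.15 in day 14 replicate 2 and 3.07 and 2.60 in replicates 1 and 3 of day 14. Myeloid markers, 9 of 10 of them listed, ranged from 1.02 to 2.76 on day 10 and from −1.03 to 4.26 on day 14, lowest in replicate 2. The 8 endothelial markers summed to 1.81 to 3.65 FPKM on day 10 and 4.72 to 8.48 FPKM on day 14, without overlap of the days (two-sided exact permutation test on the mean level, p = 0.1). Their mean level was at most −1.02 on day 10 and at least −0.94 on day 14. Singly, 3 of the 8 were separated with day 14 higher, beside 7.59% of all genes tested. None had a day mean above 1.68 FPKM. The part of endothelial RNA in the level of *Igfbp7*, 919 FPKM or more on day 14, was not tested. Mural cell, adipocyte and skeletal muscle markers overlapped between the days (two-sided exact permutation tests, p = 0.6, 1 and 0.2), and the 2 hypertrophic chondrocyte markers ranged from −2.19 to 3.92 on day 14 around 2.68 to 3.14 on day 10.

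**Figure D5:**
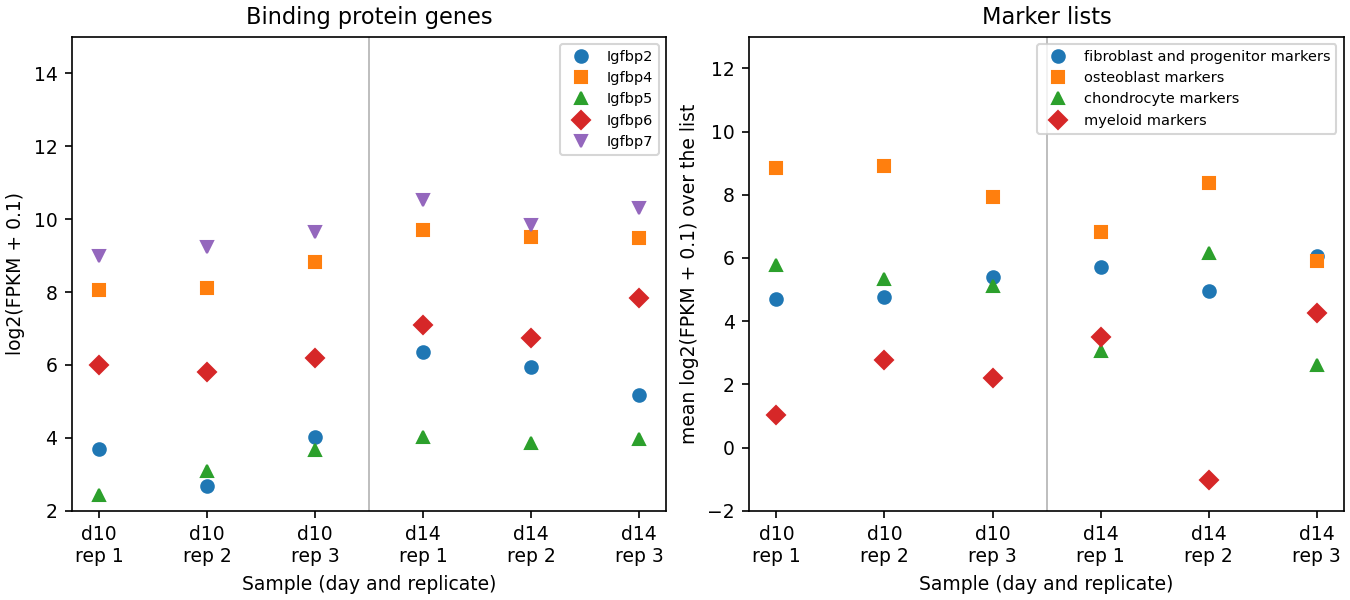
Left, log2(FPKM + 0.1) of 5 binding protein genes by sample. Right, mean log2(FPKM + 0.1) of 4 marker lists in the same samples, where progenitor markers in day 14 replicate 2 (4.97) lie within the range of day 10 (4.70 to 5.40).

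The genes most like 3 of the members over the 6 samples were sought among 11162 genes with a mean of at least 1 FPKM, by the root mean square difference of log2(FPKM + 0.1) centred on each gene's mean. For *Igf1* they were *Ugp2* and *Picalm*, each at 0.09, and *3110003A17Rik* at 0.11. For *Igfbp5* they were *Slc4a3* at 0.09 and *Fstl3* and *Hebp1* at 0.11. For *Igf2*, whose values rest on few reads, the nearest genes *Gm17066*, *Cbr4* and *Zfand1* were at 0.23 to 0.25. With 6 samples such likeness is a description only.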

How the data were processed

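RNA-seq of ECFP+ OBs was analysed for 3 samples of day 10 and 3 of day 14. Per the labels and the paper's methods, 75-base single-end reads from a low-input cDNA kit were mapped to mm10 with TopHat2 2.0.13, using SAMtools 0.1.19 and Bowtie2 2.2.3. The authors deposited FPKM per gene from Cufflinks 2.2.1, 1 file per sample. The gene annotation and the handling of multi-mapped reads are not given in the sources used here, and strand was taken as not recorded. In 1 file, 25 symbols changed into dates were restored by position.

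The depth was estimated from the steps between low FPKM values (up to 0.3) of 1977 genes with 1 annotated transcript of 1500 to 8000 bases, at a fragment length of 230 bases. Estimates ran from 4530215 to 7756703 reads per sample, and 75.4% to 79.9% of these values came within 0.1 of a whole number of reads. A floor of 3 reads on 1000 bases then equals 0.387 to 0.662 FPKM, for counting error only.

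Genes with a mean above 0.1 FPKM (19526) were compared with limma 3.58.1 in R 4.3.3 (mean-variance trend, day as the only factor) on log2(FPKM + 0.1), with Benjamini-Hochberg adjustment over all of them. For single values, two-sided exact permutation tests were run in scipy 1.17.1. Of these tests, only the limma fit was checked on simulated data. The p-values set the difference between the days against the spread between these samples. In the limma fit, that spread is drawn towards a trend over the genes tested. Genes named are the 10 members, IGF axis genes with an unadjusted p under 0.05, the 2 most abundant of each list and 12 genes fixed by name. Some genes that this rule names are not reported here. The members and lists were chosen with earlier results of these data known. Alternatives were other pseudocounts (1 and 0.01), filters (none, or above 1 FPKM), scalings and variance models, the replicate number as a block, leaving out each sample, and the exact Mann-Whitney test that the study names. Promoter sequences are from RefSeq (GRCm38.p6), where all 10 members were found by gene symbol. The bases just after the start were found in no GENCODE transcript of the gene for *Igf1r*, *Igf2r*, *Igfbp6* and the first start of *Igfbp2*.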

Additional observations from a re-analysis of the deposited data

How the results depend on the processing

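No member had an adjusted p under 0.05 from limma in any of 15 other settings or in the one added after seeing the data, and the lowest over them were 0.0609 for *Igfbp6* and 0.0776 for *Igfbp2*. *Igfbp2*, *Igfbp4* and *Igfbp6* kept an unadjusted p under 0.05 in all 15, *Igfbp7* in 14 and *Igfbp5* in 13. Over the fits that each omit 1 sample, the members over 2-fold numbered 2 (without day 14 replicate 3) to 5 (without day 10 replicate 3), and the other IGF axis genes with an unadjusted p under 0.05 numbered 3 to 10 (3 without day 10 replicate 1, 5 without day 10 replicate 2 or day 14 replicate 3, 10 without day 14 replicate 1). Without the mean-variance trend, 5 of those axis genes had such a p. Over all genes, 2 to 76 had an adjusted p under 0.05 (76 without day 14 replicate 2), and 937 to 2559 had an unadjusted p under 0.05, where the unchanged fit gave 3 and 1954.

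Relative to the progenitor markers, 1 member had an unadjusted p under 0.05, 1 was over 2-fold, 3 did not overlap between the days, and 4 axis genes had such a p. Of all 19526 genes tested, 2247 had such a p on that scale, in either direction. The shares of all genes that were over 2-fold or did not overlap on that scale were not counted. The log2 fold changes of *Igf1*, *Igf2*, *Igf1r*, *Igf2r* and *Igfbp3* turned to −0.08, −0.43, −0.46, −0.50 and −0.02, where the median of all genes moved to −0.66. Without day 10 replicate 2, which holds its lowest value, *Igf2* turned to −0.42, and the highest value with 1 sample omitted was 0.54. Over these fits the log2 ratio differences ran up to 0.30 for *Igf1r* to *Igf2r* and 0.16 for *Igf1r* to *Insr*, and down to −0.90 for *Igf2* to *Igf1* and −0.49 for *Igfbp3* to *Igfbp5*. They changed sign for *Igf2* to *Igf1* (0.21 without day 10 replicate 1), *Igf1r* to *Igf2r* (−0.01 with a pseudocount of 1, −0.06 without day 10 replicate 1, −0.25 without day 14 replicate 1), *Igf1r* to *Insr* (−0.19 without day 10 replicate 1, −0.04 without day 14 replicate 1) and *Igfbp3* to *Igfbp5* (0.04 without day 14 replicate 1). None of these had passed a test, and the cause was not tested. The exact Mann-Whitney test gave 0.1 for the 5 members whose days did not overlap.

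Samples that share a replicate number deviated from the means of their days with correlations across genes of 0.058, −0.00584 and 0.0887. For replicates 1 and 3 the best match on day 14 bore the same number, and for replicate 2 it did not. With 3 samples per day these values cannot show whether the numbers mark a shared batch or a pairing. With the replicate block, 7 members had an unadjusted p under 0.05 from limma, against 5 without it, and none an adjusted p under 0.05. Of all 19526 genes tested, 2130 had an unadjusted p under 0.05 with the block, against 1954 without it.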
